A study of Mus musculus with 4 samples.

Results

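Interferon-stimulated genes were followed in mammary tumours of mice that over-expressed Cdc25a together with the oncogene neu, and in tumours of mice with neu alone. Cdc25a is a phosphatase that drives the cell cycle by activating cyclin-dependent kinases, and neu is the rodent receptor tyrosine kinase Erbb2. The list held 38 genes, taken by name from the array: 21 were found under the names printed in the array files (25 probes), 16 more were found only through accessions or synonyms in an annotation table after the files had been seen, and Xaf1 was not matched. All 37 matched genes passed the signal filter, among 32634 genes or transcripts kept in all. The Cdc25a;neu tumours came from 2 female FVB/N mice with the genotype MMTV-cdc25a;MMTV-neu, and the neu tumours from 2 female FVB/N mice with MMTV-neu alone, so both genotypes carried the neu transgene. All mice were 26 weeks old, with mammary tumours of the early T1 stage, under 1 cm. Both transgenes are driven by the promoter of the mouse mammary tumour virus, which is active mainly in mammary epithelium. Each Cdc25a;neu tumour was hybridised against 1 neu tumour on 2-colour oligonucleotide arrays, 2 times with the dyes swapped, so the 4 arrays stand for 2 mouse pairs, and only the pair counts as a replicate. Tumour tissue holds stromal and immune cells as well as tumour cells, so fewer cells of a type and less RNA per cell cannot be told apart.

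Interferons are secreted proteins, and cells release those of type I on sensing foreign or misplaced nucleic acids. Binding to their receptors activates JAK kinases, which phosphorylate STAT proteins. A complex of STAT proteins with IRF9 then binds the interferon-stimulated response element in promoters (type I interferon), or a STAT dimer binds the gamma-activated site (type II interferon). The genes switched on this way block virus replication, present antigen, and feed back on the pathway, and tumour cells, leukocytes and stroma can all express them.

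Interferon-stimulated genes were mostly lower in Cdc25a;neu than in neu tumours, by little in pair 1 and by more in pair 2, and no single gene passed the test. The 21 genes found by the array's names had a median log2 ratio of Cdc25a;neu over neu of -0.16 in pair 1 and -0.76 in pair 2, while the medians of all genes were 0.0050 and 0.0049. With the 16 further genes the medians were -0.23 and -0.83. Lower in both pairs were 17 of the 21 and 12 of the 16, where 28.1% of all genes were lower in both. On all 4 arrays 13 of the 21 and 10 of the 16 were lower, against 12.4% of all genes. Higher in both pairs were 2 of the 37, Pml and Oas3, against 31.9% of all genes. Members at 2-fold or more lower numbered 1 of 37 in pair 1, against 0.374% of all genes, and 17 of 37 in pair 2, against 0.545%. The pairs differed in size for the whole list: the ratio was lower in pair 2 than in pair 1 for 37 of 37, against 48.5% of all genes.

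limma called 0 of the 37 after Benjamini-Hochberg adjustment over all genes, with adjusted p from 0.438 to 0.908, and 0 of all 32634 genes, a background of 0%. At an unadjusted limma p under 0.05, 14 of the 37 were lower (7 of the 21 and 7 of the 16) and 0 higher, against 5.73% lower and 3.9% higher among all genes. With eBayes set to trend and robust, 0 of the 37 had an unadjusted p under 0.05, where 0.573% of all genes did. One setting gave calls: with median centring in place of loess, 10 of the 21 (18 of the 37) passed, against 3.04% of all genes, in a fit whose lowest adjusted p was 1.39e-50 over all genes from 2 pairs. The same setting left 7 of the 21 lower on all 4 arrays, against 3.28% of all genes, and gave a median of -0.26 in pair 1.

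**Figure D1:**
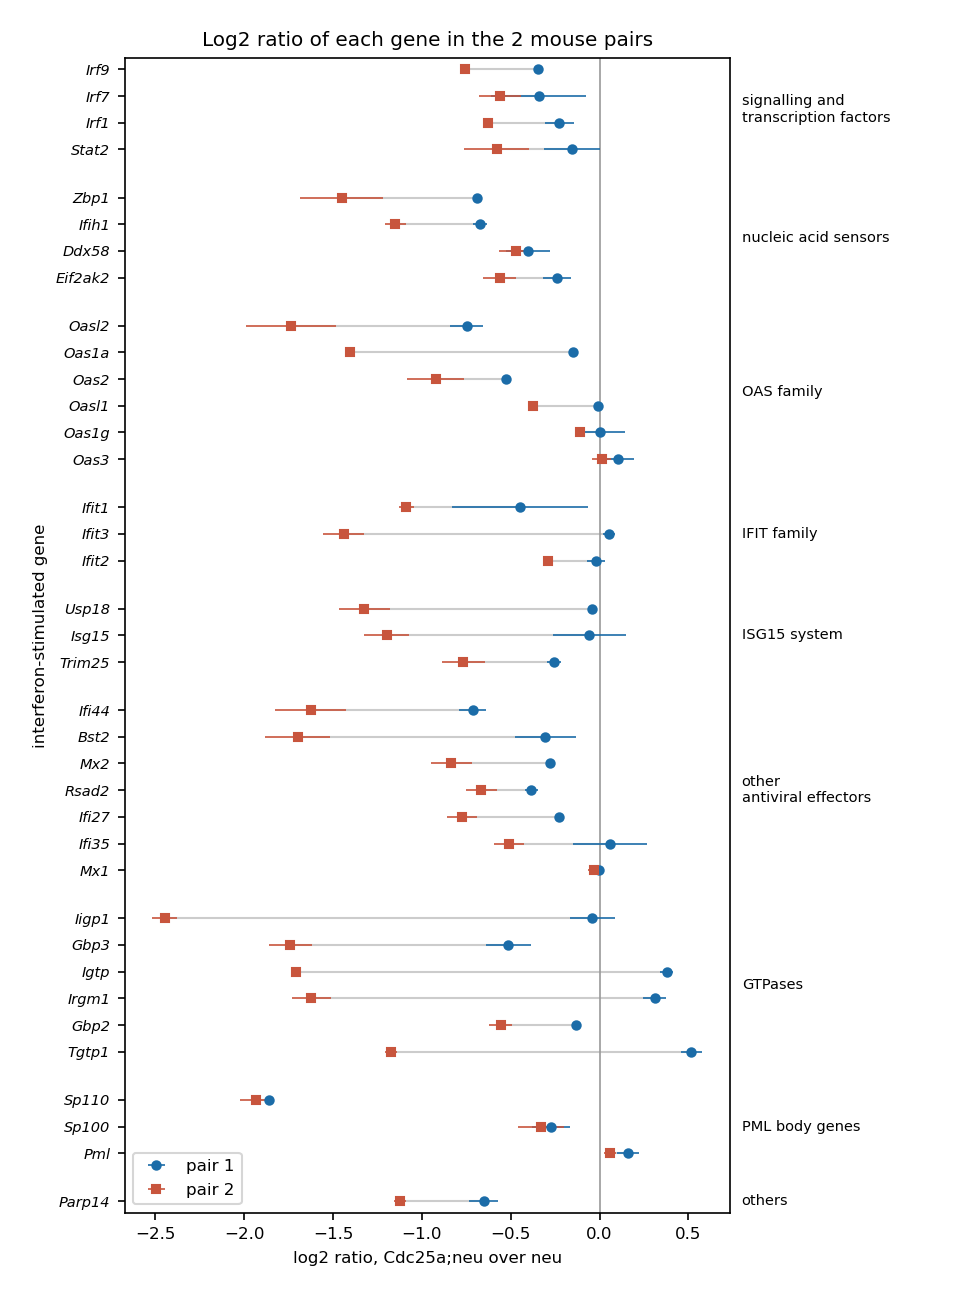
Log2 ratio of Cdc25a;neu over neu for the 37 measured interferon-stimulated genes, grouped by role. Circles are pair 1 and squares pair 2, each the mean of 2 dye-swapped arrays with bars that reach the value of each array. The squares lie left of the circles for all 37 genes, and Sp110 is the gene past -1 in both pairs.

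The 4 tumours were next read one by one, from the intensity of each channel after loess and between-array scaling (Aquantile), averaged over the 2 arrays of a mouse. The Cdc25a;neu mouse of pair 2 stood apart, and the other 3 mice lay closer together. Centred on each gene's mean over the 4 mice, the median of the 37 genes was -0.01 in the Cdc25a;neu mouse of pair 1 and -0.58 in that of pair 2, against 0.28 and 0.34 in the neu mice of pairs 1 and 2. The Cdc25a;neu mouse of pair 2 was the lowest of the 4 for 32 of 37 genes (17 of the 21), against 28.4% of all genes, and the highest for 0. A neu mouse was the highest for 31 of the 37, against 43.4% of all genes. Both Cdc25a;neu mice lay below both neu mice for 24 of the 37 (13 of the 21 and 11 of the 16), against 11.3% of all genes, and in the other 13 the genotypes overlapped. The Cdc25a;neu mice lay farther apart than the neu mice for 28 of the 37, against 57.4% of all genes. The median difference between the Cdc25a;neu mice (pair 2 minus pair 1) was -0.54, while that between the neu mice was 0.01. Levels of mice in different pairs come from different arrays and rest on the scaling between arrays, whereas the ratio within a pair does not. Quantile normalization of all channels gave medians of 0.01 and -0.57 in the Cdc25a;neu mice, against 0.27 and 0.31 in the neu mice.

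**Figure D2:**
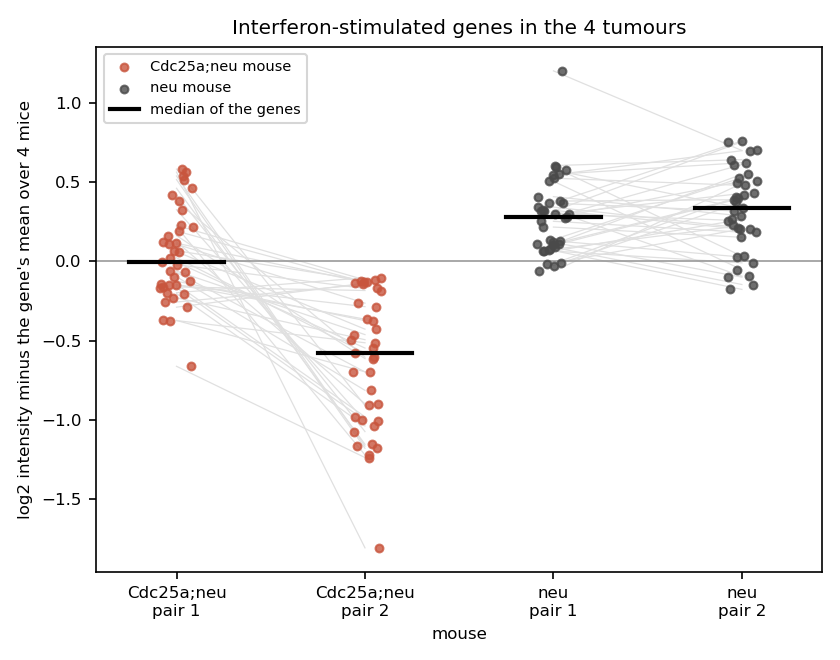
Log2 intensity of the 37 interferon-stimulated genes in each of the 4 tumours, as the difference from the gene's mean over the 4 mice. Points are genes, grey lines join a gene within a genotype, and black bars are medians (-0.01 and -0.58 in the Cdc25a;neu mice, 0.28 and 0.34 in the neu mice).

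Promoters are shown because the members share the pathway that acts on them. RefSeq promoters (GRCm38.p6, 300 bases: 250 before and 50 after the start of a gene) were in the table for 30 of the 38 members and for 27025 genes in all. The core of the interferon-stimulated response element was searched as GAAA and a second GAAA with 2 bases of any kind between them, or as TTTC and TTTC in the same way for the other strand, and the gamma-activated site as TTCNNNGAA, which reads the same on both strands. The response element core occurred in 17 of the 30 members (56.7%), against 3.99% of all genes, and the gamma-activated site in 8 of the 30 (26.7%), against 9.55%. Matches of the response element may overlap one another, and in 1 member promoter a match of each motif overlapped. The 17 members with a response element match had medians of -0.15 (pair 1) and -1.15 (pair 2) for the log2 ratio. The 12 measured members without one had -0.27 and -0.60, a description with no test. A match here is a run of letters, and a promoter without one may hold other forms of the element.

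Below, capitals mark matches of the response element core, and all sequences read 5′ to 3′ on the strand of the gene. Isg15 (chr4:156200769-156201068, minus strand) holds 3 overlapping matches, starting 78, 72 and 66 bases before the start. Ifit1 (chr19:34640639-34640938, plus strand) holds 2, starting 104 and 85 bases before it. Igtp (chr11:58199306-58199605, plus strand) holds 1 at 34 bases, and is shown as a gene with opposite signs in the pairs. Oas3 (chr5:120777610-120777909, minus strand) holds 1 at 75 bases, and is shown as a gene that was not lower in either pair. Oasl2 (chr5:114896684-114896983, plus strand) holds 0 in this window, and is shown as the gene with the lowest mean ratio among the 21.
Isg15: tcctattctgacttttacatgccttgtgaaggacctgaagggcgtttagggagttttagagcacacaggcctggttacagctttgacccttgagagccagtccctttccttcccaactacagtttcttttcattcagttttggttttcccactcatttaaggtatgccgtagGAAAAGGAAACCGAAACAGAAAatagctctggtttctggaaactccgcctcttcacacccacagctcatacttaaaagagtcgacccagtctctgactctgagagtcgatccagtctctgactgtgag
Ifit1: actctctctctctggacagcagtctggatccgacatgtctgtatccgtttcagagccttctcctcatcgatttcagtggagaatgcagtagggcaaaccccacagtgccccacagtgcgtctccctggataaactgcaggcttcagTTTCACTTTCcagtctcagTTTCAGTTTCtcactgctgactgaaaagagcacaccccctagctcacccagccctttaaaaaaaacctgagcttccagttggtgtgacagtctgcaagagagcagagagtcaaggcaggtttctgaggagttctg
Igtp: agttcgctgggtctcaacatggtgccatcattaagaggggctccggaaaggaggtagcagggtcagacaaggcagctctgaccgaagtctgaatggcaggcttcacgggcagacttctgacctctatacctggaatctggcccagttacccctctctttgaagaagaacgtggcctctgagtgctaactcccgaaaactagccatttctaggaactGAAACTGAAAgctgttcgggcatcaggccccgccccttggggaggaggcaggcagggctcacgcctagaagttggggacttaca
Oas3: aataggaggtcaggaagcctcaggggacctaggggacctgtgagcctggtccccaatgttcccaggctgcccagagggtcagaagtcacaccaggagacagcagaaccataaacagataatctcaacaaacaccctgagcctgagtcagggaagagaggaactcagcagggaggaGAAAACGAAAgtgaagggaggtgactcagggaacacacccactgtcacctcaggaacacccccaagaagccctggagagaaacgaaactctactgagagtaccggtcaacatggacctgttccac
Oasl2: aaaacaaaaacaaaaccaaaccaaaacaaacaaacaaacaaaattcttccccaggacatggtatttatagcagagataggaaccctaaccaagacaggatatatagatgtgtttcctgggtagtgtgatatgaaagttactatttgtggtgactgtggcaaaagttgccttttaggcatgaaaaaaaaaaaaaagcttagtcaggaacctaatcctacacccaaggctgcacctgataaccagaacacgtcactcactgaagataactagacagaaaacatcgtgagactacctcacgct

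Among signalling and transcription factors, all 4 genes were lower in both pairs and none passed the test. Irf9, the DNA-binding partner of the STAT proteins, had -0.35 (pair 1) and -0.76 (pair 2) on the log2 scale. Stat2, its STAT partner, had -0.16 and -0.58. Irf1, a factor that type II interferon induces strongly, had -0.23 and -0.63, and Irf7, the factor that amplifies type I interferon production, had -0.34 and -0.56. The dye orientations disagreed in size for Irf7 in pair 1, at -0.61 and -0.08. Their median in pair 2 was -0.60, beside -0.83 for all 37 genes.

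The 4 nucleic acid sensors were lower on all 4 arrays, where 12.4% of all genes were. Each had an unadjusted limma p under 0.05, where 5.73% of all genes were lower at that level. With eBayes set to trend and robust, 0 of the 37 genes reached it. Zbp1, which senses Z-form nucleic acid and can start necroptosis, had log2 intensities of 7.96 and 7.63 in the Cdc25a;neu mice of pairs 1 and 2, against 8.64 and 9.08 in the neu mice. The genotypes did not overlap, and the ratios were -0.69 and -1.45 (mean -1.07 ± 0.54, SD, n = 2 pairs). Ifih1, the cytoplasmic sensor of long double-stranded RNA also called MDA5, had 9.11 and 8.39 in Cdc25a;neu mice, against 9.78 and 9.54 in neu mice. The genotypes did not overlap here either, and the ratios were -0.67 and -1.15. Ddx58, the sensor RIG-I for short double-stranded RNA, had ratios of -0.40 and -0.47. Eif2ak2, the kinase PKR that stops translation on binding double-stranded RNA, had -0.24 and -0.56.

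The OAS family makes or relates to the enzymes that build 2′-5′ oligoadenylates, the activator of RNase L, and its members gave ratios from near 0 to more than 2-fold lower. Oasl2 had log2 intensities of 8.48 and 7.64 in Cdc25a;neu mice, against 9.23 and 9.38 in neu mice. Both Cdc25a;neu mice were below both neu mice, and the ratios were -0.75 and -1.74 (mean -1.24 ± 0.70, SD, n = 2 pairs). Oas2 had 6.92 and 6.66 in Cdc25a;neu mice, against 7.45 and 7.58 in neu mice, with ratios of -0.53 and -0.92 and no overlap, and its mean of -0.72 became -1.26 with the scanner's log ratio. Oas1a had 9.66 and 8.64 in Cdc25a;neu mice, against 9.81 and 10.04 in neu mice, so nearly all of its difference lay in the mouse of pair 2 (ratios -0.15 and -1.40). The remaining members were near 0 in pair 1. Oasl1 had -0.0093 and -0.38, and its mean of -0.19 became -0.44 with the scanner's log ratio. Oas1g, well above background on 3 of 4 arrays in each genotype, had 0.0025 and -0.11. Its mean of -0.055 became -0.25 with the scanner's log ratio. Oas3 was higher in both pairs by little, with 7.13 and 6.81 in Cdc25a;neu mice, against 7.03 and 6.80 in neu mice and ratios of 0.10 and 0.014, and its genotypes overlapped.

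The IFIT genes lie close together on chromosome 19 and encode proteins that bind foreign RNA ends. Ifit1 had log2 intensities of 7.78 and 7.15 in Cdc25a;neu mice, against 8.23 and 8.24 in neu mice, whose values were nearly the same. Its ratios were -0.45 and -1.09, but in pair 1 the dye orientations gave -0.83 and -0.07. Ifit3 had ratios of 0.05 and -1.44, and Ifit2 had -0.022 and -0.29. In pair 2, then, Ifit1 and Ifit3 were more than 2-fold lower and Ifit2 was not. Ifit2 was weak, with log2 intensities from 6.27 to 6.67, and its mean of -0.16 became -0.39 with the scanner's log ratio.

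The ISG15 system attaches and removes the ubiquitin-like protein Isg15. Isg15 itself had ratios of -0.057 and -1.20, and Usp18, the protease that removes it and dampens receptor signalling, had -0.042 and -1.32. Both were thus near 0 in pair 1 and more than 2-fold lower in pair 2. Trim25, a ligase that acts on RIG-I and also conjugates Isg15, had -0.26 and -0.77.

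Among other antiviral effectors, Bst2 (tetherin, which holds budding viruses at the membrane) had log2 intensities of 10.87 and 9.43 in Cdc25a;neu mice, against 11.18 and 11.13 in neu mice. The Cdc25a;neu mouse of pair 2 stood 1.44 below that of pair 1, and the ratios were -0.31 and -1.70. Ifi44, a gene long used as an interferon marker, had 8.72 and 7.88 in Cdc25a;neu mice, against 9.44 and 9.51 in neu mice. Its genotypes did not overlap and its ratios were -0.71 and -1.63 (mean -1.17 ± 0.64, SD, n = 2 pairs). Mx2 and Mx1, dynamin-like GTPases that block viruses, both on chromosome 16, gave unlike ratios: Mx2 had -0.28 and -0.83, while Mx1 had -0.0049 and -0.033. Ifi27 had -0.23 and -0.77. Ifi35 had 0.06 and -0.51, with dye orientations of -0.15 and 0.27 in pair 1. Rsad2, the radical SAM enzyme viperin, had -0.38 and -0.66 on its brightest probe, while its other kept probes had means of 0.049 and 0.0020, so its direction depends on the probe.

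The immunity-related GTPases Iigp1, Igtp, Irgm1 and Tgtp1 had the largest differences between the pairs of the 37 genes. Interferon-induced GTPases guard the membranes of vacuoles that hold parasites and bacteria, and are known for their response to type II interferon. Iigp1 had log2 intensities of 11.93 and 9.56 in Cdc25a;neu mice, against 11.97 and 12.01 in neu mice. The Cdc25a;neu mouse of pair 2 stood apart from the other 3, being 5.46-fold lower than its partner (ratios -0.04 and -2.45, mean -1.24 ± 1.70, SD, n = 2 pairs). The 3 other immunity-related GTPases, all on chromosome 11, were higher in pair 1 and lower in pair 2 on every array: Irgm1 had ratios of 0.31 and -1.62. Igtp had 0.38 and -1.71. Tgtp1 had 0.52 and -1.17, with another kept probe at 0.09 in both pairs. Their means over the pairs thus join opposite values, and the difference between the pairs, each with 1 mouse per genotype, was not tested. The guanylate-binding proteins were lower in both pairs. Gbp3 had 9.32 and 8.48 in Cdc25a;neu mice, against 9.83 and 10.22 in neu mice, with no overlap and ratios of -0.51 and -1.74. Gbp2, its neighbour on chromosome 3, had -0.13 and -0.56.

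Of the 3 genes of PML bodies, nuclear structures that grow under interferon, Sp110 was the member whose pairs gave nearly the same large ratio. Its log2 intensities were 9.55 and 8.97 in Cdc25a;neu mice, against 11.41 and 10.91 in neu mice. The genotypes were separated by more than the mice within either of them, with ratios of -1.86 and -1.94 (mean -1.90 ± 0.05, SD, n = 2 pairs), 3.73-fold lower in the mean. It had the lowest adjusted p of the list together with Ddx58 (limma adjusted p = 0.438) and so did not pass. Its probe is named through an accession, and the array's own name for it was not a gene symbol. Sp100, of the same family and also on chromosome 1, had -0.27 and -0.33. Pml, the scaffold of the bodies, had 10.001 and 9.66 in Cdc25a;neu mice, against 9.84 and 9.60 in neu mice. It was higher on all 4 arrays by little (ratios 0.16 and 0.060), and its genotypes overlapped.

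Parp14, an ADP-ribosyltransferase induced by interferon, had log2 intensities of 8.40 and 8.26 in Cdc25a;neu mice, against 9.05 and 9.38 in neu mice, with no overlap and ratios of -0.65 and -1.12. After Mx1, which was near 0 in both pairs, the smallest SDs between the pairs among the 37 genes were those of Sp100 (0.040), Ddx58 (0.048) and Sp110 (0.052). The largest were those of the GTPases Iigp1 (1.70), Igtp (1.48), Irgm1 (1.37) and Tgtp1 (1.20).

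**Figure D3:**
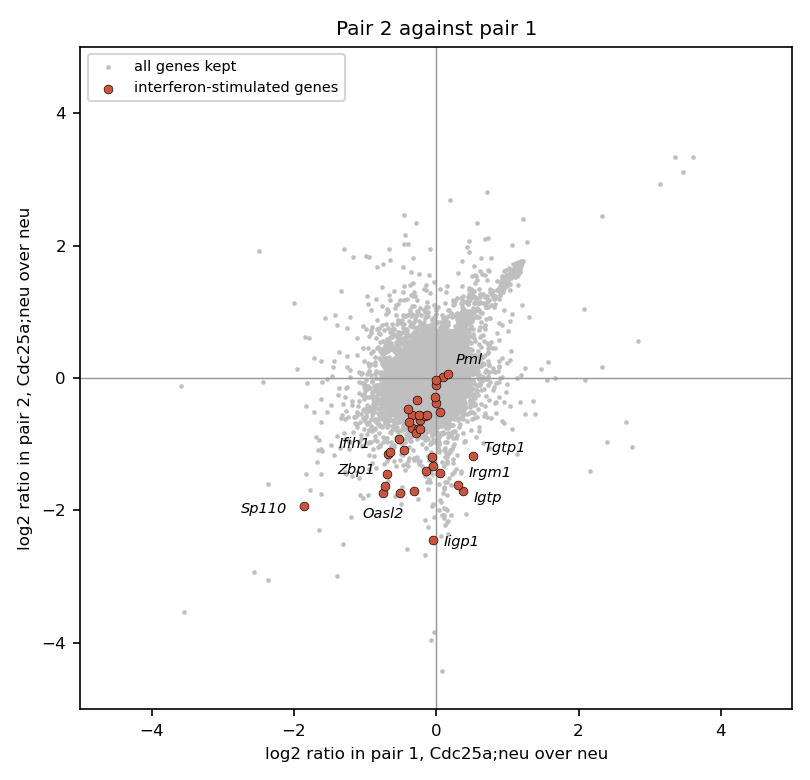
Log2 ratio of Cdc25a;neu over neu in pair 2 against that in pair 1 for 32634 genes (grey) and the 37 interferon-stimulated genes (red), with a few named. The red points spread down the pair 2 axis, to -2.45 for Iigp1, while only Sp110 reaches -1.86 in pair 1.

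The genes that make, receive and damp interferon signals lay near 0 in the median. Of 34 such genes listed, 31 were measured; Ifnb1, Ifna2 and Sting1 were not matched to a kept probe. Their median log2 ratio was 0.01 in pair 1 and 0.02 in pair 2. Of the 31, 7 were lower in both pairs, against 28.1% of all genes, and 10 were higher in both, against 31.9%. In either direction 0 passed the test. At an unadjusted limma p under 0.05, 2 were lower and 1 higher, against 5.73% lower and 3.9% higher among all genes. The 5 measured interferon genes had medians of 0.10 and 0.04, and the 9 receptor, kinase and STAT genes -0.06 and 0.02. Jak1, a kinase of both interferon receptor types, had -1.02 and -0.48, with another kept probe at 0.03 in the mean, so its direction depends on the probe. Socs3, an inhibitor of JAK kinases, had -0.04 and 0.69. Pias1, an inhibitor of STAT proteins, had -0.0021 and -0.44, with another kept probe at 0.11 in the mean. The DNA sensor Tlr9 had 0.28 and 0.35, and Ifna4, an interferon alpha gene, had 0.10 and 0.27. Irf8, a factor of myeloid and dendritic cells, had -0.22 and -0.40, with another kept probe at 0.07 in the mean. The direction of Pias1 and Irf8 thus depends on the probe too.

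The cell type markers of the 4 tumours were read beside these values as the summed normalized intensity of each list. The sum of mammary epithelium markers, most of it from the keratins Krt8 and Krt18, was 43542 and 46784 in Cdc25a;neu mice, against 45252 and 48556 in neu mice, and 6 of 7 were well above background on all arrays. Other markers of that list had ratios away from 0: Erbb2 had 0.45 and 0.85, Epcam had -0.17 and -0.51, and Krt19 had -0.40 and 0.36. Whether the Erbb2 probe reads the neu transgene was not checked. The tumour with the lowest interferon-stimulated genes had the highest macrophage and myeloid markers: their sum was 7781 and 35751 in Cdc25a;neu mice of pairs 1 and 2, against 10305 and 10153 in neu mice. Lysozyme, Lyz2, made up 90.8% of the highest sum, with a ratio of -0.45 in pair 1 and 2.03 in pair 2, and its other kept probe had a mean of 0.33, against 0.79. Without Lyz2 the sums were 2087 and 3277 in Cdc25a;neu mice, against 2507 and 2213 in neu mice. Csf1r was not highest in that mouse, with log2 intensities of 9.41 and 9.19 in Cdc25a;neu mice, against 9.40 and 8.998 in neu mice, while all 8 markers had a higher ratio in pair 2 than in pair 1. T and NK cell markers (10 of 11 measured, 8 well above background on all arrays) summed to 2257 and 2107 in Cdc25a;neu mice, against 2193 and 2157 in neu mice. Without Cd3e, the brightest, they were 938 and 918 in Cdc25a;neu mice, against 933 and 1037 in neu mice. The list's median ratio was 0.0035 in pair 1 and -0.17 in pair 2. The lowest in pair 2 were Nkg7 (-0.49), Klrd1 (-0.27), Gzma (-0.26), Gzmb (-0.23) and Lck (-0.20), all near 0 in pair 1. In pair 2 Cd3d had -0.14 and Cd3g -0.11, while Cd8a (0.09), Cd3e (0.09) and Prf1 (0.07) went the other way. The other kept probe of Nkg7 had a mean of -0.09, against -0.25. B cell markers summed to 857 and 809 in Cdc25a;neu mice, against 854 and 801 in neu mice.

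The sum of fat cell markers was lower in both Cdc25a;neu mice, at 1412 and 2126, against 5977 and 16313 in neu mice. Fabp4 made up 80.3% of the highest sum. Without Fabp4 the sums were 566 and 552 in Cdc25a;neu mice, against 1639 and 3219 in neu mice. Of the 5 markers, 3 were 2-fold or more lower in each pair, while Plin1 had -0.16 and -0.86 and Lep 0.0083 and -0.15. Skeletal muscle markers stood out in 1 neu mouse, with 846 and 995 in Cdc25a;neu mice, against 933 and 3203 in neu mice, the last being pair 2. The list for plasmacytoid dendritic cells, the main makers of type I interferon, summed to 2634 and 1449 in Cdc25a;neu mice, against 4406 and 4792 in neu mice. Without Bst2, the sums were 763 and 759 in Cdc25a;neu mice, against 2093 and 2551 in neu mice. Of the markers left, Ly6d was the brightest in both neu mice. Its log2 intensities were 7.96 and 7.93 in Cdc25a;neu mice, against 10.52 and 10.86 in neu mice. The list shares Bst2 and Irf7 with the interferon-stimulated genes, and its other markers had ratios on both sides of 0. Siglech had 0.07 and 0.30, and Ly6d, which epithelium also expresses, had -2.56 and -2.93. Tcf4 had -0.39 and -0.56, with other kept probes at -0.29 and -0.04 in the mean. The part of these cell types in the values above was not tested. In Cdc25a;neu the fat cell sum was lower in both pairs, as were most interferon-stimulated genes. The T and NK cell median was near 0 in pair 1 and lower in pair 2. The myeloid sum was highest in the Cdc25a;neu mouse of pair 2, where the interferon-stimulated genes were lowest. The muscle sum stood out only in the neu mouse of pair 2, while the interferon-stimulated genes had centred medians of 0.28 and 0.34 in the neu mice. With 4 tumours in all, differences in cell types and in these genes cannot be told apart.

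**Figure D4:**
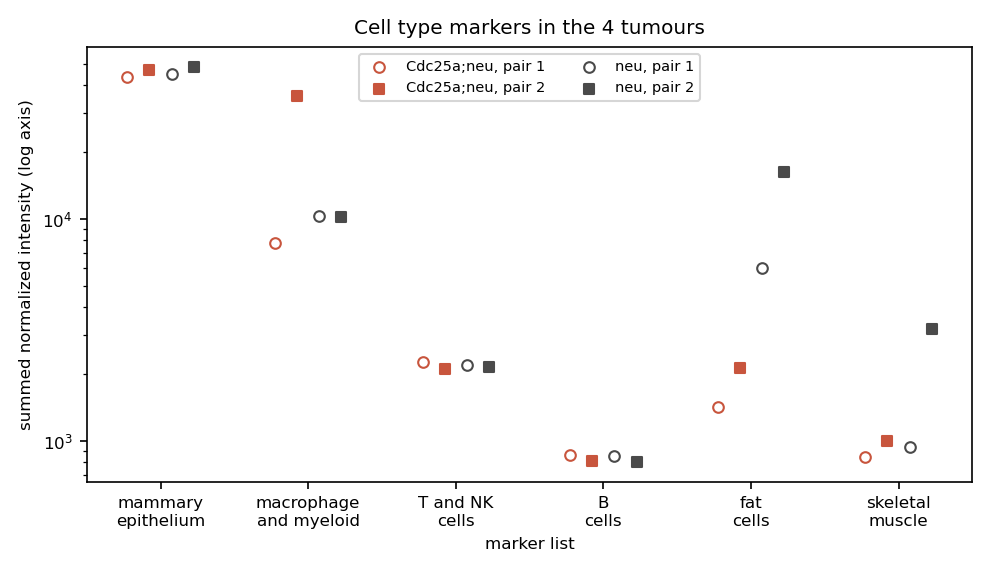
Summed normalized intensity of cell type marker lists in the 4 tumours on a log axis. Open circles are pair 1 and filled squares pair 2, with Cdc25a;neu mice in red and neu mice in grey. The myeloid sum is highest in the Cdc25a;neu mouse of pair 2 (35751), and the fat cell sums of the Cdc25a;neu mice (1412 and 2126) lie below those of the neu mice (5977 and 16313).

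The arrays carried 41174 probes outside controls, of which 37177 were kept. Between 78.5% and 92.2% of spots per array and channel were well above background. Of the 37 genes, 36 were well above background on all 4 arrays in both genotypes and none was saturated on all arrays of a genotype, so the ratios are measured on both sides. The intensities carry an offset of 50, and weak genes such as Oasl1, Oas1g and Ifit2 had larger mean ratios with the scanner's log ratio. The size of a ratio at weak signal thus depends on the processing. The number of mice, 2 per genotype, limits the precision of each value.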

How the data were processed

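The 4 scanner files were deposited by the authors and hold spot intensity per channel (mean signal, local background median, processed signal) and a log10 ratio of red over green, per the file headers. The scanner software was Agilent Feature Extraction, as version 7.2 per the submitters' processing notes and 7.5.1 per the file headers. The authors' deposited value table holds a natural log of red over green, a scale found from the values. How it was centred is unknown here, and it was used as an alternative. Dyes came from the labels, and ratios run Cdc25a;neu over neu.

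Intensities were corrected by normexp (offset 50) and loess within arrays. Control and flagged spots were left out, spots of a probe averaged, and probes kept where 1 or both channels stood well above background on 2 or more arrays. The brightest kept probe stood for a gene. The 2 dye-swapped arrays of a pair were averaged, and the mean of the 2 pairs was tested against 0 with limma 3.58.1 (R 4.3.3), two-sided, eBayes, and p-values were adjusted by Benjamini-Hochberg over all genes (threshold 0.05). With 1 array per slide, slide could not enter as a batch. Levels per mouse are log2 values of separate channels after Aquantile.

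Probes were named by accession (18484), symbol (1500) or synonym (934) from a RefSeq table of GRCm38.p6, and 20256 kept the array's name. The files name no build, so that table served for names and neighbours only. Promoters came from a RefSeq table of the same assembly. The members, the pathway and marker lists and the tests were chosen with earlier results of these data known. Every member is given its pair ratios. Levels per mouse are given for the 12 members with the largest mean ratio in size and those higher in both pairs, and the 6 largest pathway genes are named.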

Additional observations from a re-analysis of the deposited data

How the results depend on the processing

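The counts and medians of the 21 genes kept their direction under every alternative run: the scanner's log ratio, its processed signals with loess, median centring, the authors' value table, 2 other signal filters, the median of all probes of a gene, and each array left out in turn. Median centring in place of loess called 10 genes in place of 0 (18 of the 37, and 992 of all 32634 genes). It left 7 in place of 13 lower on all 4 arrays. The medians were then -0.26 in place of -0.16 in pair 1 and -0.57 in place of -0.76 in pair 2. The cause was not tested. Adding the 16 genes found through the annotation table, an alternative chosen after seeing the data, gave 29 lower in both pairs and 23 on all 4 arrays, because more genes were counted. Without the array of pair 1 with Cdc25a;neu in Cy5, 14 of the 21 were lower in both pairs, and 13 were with the authors' deposited values. Of single genes, 2 reversed their mean log2 ratio: Mx1 to 0.015 with median centring and Oas1g to 0.017 without the array of pair 1 with Cdc25a;neu in Cy3 (-0.13 without the other array of pair 1). The means of 10 of the 37 genes were more than 1.5 times as large with the scanner's log ratio, 10 with its processed signals and 8 with the authors' values, for example -1.26 in place of -0.72 for Oas2 with the scanner's log ratio, and -0.49 in place of -0.16 for Ifit2, -0.60 in place of -0.30 for Sp100 and -0.78 in place of -0.45 for Irf7 with the authors' values. The Rsad2 mean ran from -0.77 to -0.00096 over the alternatives. The pairing is part of each ratio, since the mice of a pair share an array, and a fit of mouse levels with no replicate block called 0 of the 21. Calls were 0 in the other settings too.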

Other observations

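Where several kept probes read 1 gene, they did not always give the same ratio. For Irgm1, 2 probes had means of -0.66 and -0.53 and the third, well above background on 2 of 4 arrays in each genotype, had 0.014. For Ddx58, a further probe outside the naming rule, found by its accession, had -0.16 in the mean, against -0.44 for the probe used. Both Pml probes were higher, with means of 0.11 and 0.077.

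Over the 37 genes the ratios of the pairs had a Pearson correlation of 0.31 (Spearman 0.34), a description across genes that share mice and arrays. The dye-swapped arrays of 1 pair had correlations of 0.87 in pair 1 and 0.94 in pair 2, each over RNA of the same 2 tumours.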
